A study of Mus musculus with 15 samples.

Results

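In mouse liver on 3 diets, 33 genes of protein folding and quality control in the endoplasmic reticulum (ER) were followed. The genes were taken from a named list and matched by symbol. All 33 were found among the 23420 genes of the count tables, and all 33 were among the 12193 genes with enough counts to be tested. They comprise 9 chaperones and cofactors of the Hsp70 and Hsp90 systems, 5 disulfide isomerases, 2 lectin chaperones, 8 genes of ER-associated degradation, 4 stress sensors and their transcription factors, and 5 genes of translocation into the ER. The liver was the pulverized left lobe of male C57Bl/6J mice, an inbred laboratory strain, and polyA RNA was sequenced. Of 15 libraries, 5 came from the base diet (BD, 4% fat), 5 from a high-fat diet (HFD, 31% fat) and 5 from a diet equally rich in fat (31%) that was deficient in methionine, choline and folate (MCD). Every group carried the vehicle, 5% Alkmauls El-620 in saline, and was taken 24 h after that treatment. The series concerns fatty liver disease and the handling of the solvent tetrachloroethylene, and no library here came from a solvent-treated mouse. Ages and time on diet were not given in the sources used here. The labels do not tie each library to its own animal, so a p-value here measures how samples differ, which may be technical.

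Proteins for secretion enter the ER through the Sec61 channel, where BiP (Hspa5), GRP94 (Hsp90b1) and their J-domain partners hold them while disulfide isomerases and the lectins calnexin and calreticulin help them fold. Molecules that fail to fold are trimmed by Edem mannosidase-like proteins, passed through a membrane complex of Sel1l, the ubiquitin ligase Hrd1 (Syvn1), Herp (Herpud1) and Derlins, and degraded by the proteasome. When unfolded proteins accumulate, the sensors IRE1 (Ern1), PERK (Eif2ak3) and ATF6 start the unfolded protein response, in which spliced XBP1 and cleaved ATF6 switch on many of these genes, a heavy task in hepatocytes because they make most plasma proteins.

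The DNA element through which ATF6 and XBP1 are known to act is the ER stress response element, and it is shown here because it joins members whose RNA is compared in the following paragraphs. RefSeq promoters (GRCm38.p6, 250 bases before to 50 after the start of transcription) were at hand for 26 of the 33 members and were searched on both strands for CCAAT and CCACG with 9 bases between them (ERSE) and for ATTGG and CCACG with 1 base between them (ERSE-II). ERSE letters stood in 9 of the 26 windows and ERSE-II letters in 2, so 11 of 26 (42.3%) held one or the other. Of 27025 RefSeq genes with such a window, 49 (0.181%) held either, and of 9092 tested genes outside the list 15 (0.165%) did. The list holds many genes that ATF6 and XBP1 are known to switch on. A high share among members was therefore built in, and the contrast tests nothing. The element TGACGTGG, at which XBP1 and ATF6 can also bind, was in 0 of the 26 windows and in 193 of 27025 (0.714%). A match shows letters, not binding. The windows around the matches follow, each 5′ to 3′ on the strand of its gene, with both motif arms in capitals. A site on the opposite strand reads CGTGG first and ATTGG second.
Hspa5 (BiP), chr2:34772013-34772055, plus strand: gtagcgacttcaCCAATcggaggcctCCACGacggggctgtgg
Hsp90b1 (GRP94), chr10:86705521-86705668, minus strand: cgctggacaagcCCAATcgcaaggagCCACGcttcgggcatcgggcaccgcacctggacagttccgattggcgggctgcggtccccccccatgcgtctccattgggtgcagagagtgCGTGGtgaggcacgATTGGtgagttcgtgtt
Dnajc3 (p58IPK, a BiP cofactor), chr14:118937815-118937857, plus strand: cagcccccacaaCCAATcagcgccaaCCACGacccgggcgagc
Creld2 (an ER-resident isomerase-like protein), chr15:88819508-88819550, plus strand: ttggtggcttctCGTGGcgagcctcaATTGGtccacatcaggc
Pdia6 (a disulfide isomerase), chr12:17266479-17266521, plus strand: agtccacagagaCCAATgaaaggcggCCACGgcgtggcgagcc
Calr (calreticulin), chr8:84847063-84847105, minus strand: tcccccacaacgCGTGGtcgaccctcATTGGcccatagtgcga
Canx (calnexin), chr11:50325788-50325830, minus strand: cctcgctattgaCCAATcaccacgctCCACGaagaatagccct
Derl3 (Derlin-3), chr10:75893230-75893272, plus strand: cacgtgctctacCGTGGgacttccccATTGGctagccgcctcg
Syvn1 (Hrd1), chr19:6046520-6046562, plus strand: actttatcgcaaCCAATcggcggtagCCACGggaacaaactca
Dnajb11 (ERdj3, ERSE-II), chr16:22857840-22857874, plus strand: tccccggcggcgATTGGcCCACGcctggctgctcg
Herpud1 (Herp, ERSE-II), chr8:94386365-94386399, plus strand: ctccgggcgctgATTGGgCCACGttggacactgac
Hsp90b1 had 2 such sites, 1 on each strand, and the other 10 members had 1 each.

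Libraries held 3704642 to 23131089 gene counts (median 10312311), and 3 counts corresponded to 0.118 to 0.852 CPM (counts of a gene relative to the library's total, on one scale for all libraries). The 33 members took 0.802% to 1.17% of the gene counts of a library. Levels are CPM scaled by TMM factors, and differences are log2 fold changes (± SE) from edgeR's quasi-likelihood test over all 15 libraries, with p-values adjusted by Benjamini-Hochberg over 12193 genes and a gene called at an adjusted p under 0.05. On the first principal component of all tested genes (37.1% of the variance) HFD replicate 2 lay at 28.4, within the MCD range of 15.6 to 39.4, while the other HFD libraries lay from -12.7 to -0.415 and BD from -37.8 to -21.1. Titles number the BD samples apart from those of both other diets, so a batch that followed those numbers and the base diet cannot be told apart. In a bulk sample, fewer cells of a type and less RNA per cell cannot be told apart either.

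By edgeR, in HFD against BD, Derl3 rose and no member fell, where 3.65% of all tested genes were called higher and 3.27% lower. In MCD against BD, Edem1 and Syvn1 fell and no member rose, where 12.8% of tested genes were called higher and 8.64% lower. In MCD against HFD, Derl3 fell and no member rose, where 2.22% of tested genes were called higher and 0.927% lower. Each pair of these comparisons shares the libraries of 1 diet, so they are not independent.

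The 3 counts of 0 were looked at with other thresholds and tools. At an unadjusted p under 0.05 by edgeR, 3 members (9.09%) were lower in HFD than in BD, against 9.42% of all tested genes. DESeq2 called 2 of the 33 lower there (Dnajb9 and Syvn1), among 495 genes in all, and limma-voom 0 of the 33, among 398. In MCD against BD, 0 of 33 members were higher at an unadjusted p under 0.05 by edgeR, against 17.8% of all tested genes. DESeq2 and limma-voom called 0 higher there, among 1651 and 1530 genes in all. In MCD against HFD, 2 members (6.06%) were higher at an unadjusted p under 0.05 by edgeR, against 11.1% of all tested genes. DESeq2 and limma-voom called 1 each, Eif2ak3 with both, among 433 and 377 genes in all. Most differences were small and bounded: the 95% interval of the fold change lay within 2-fold in either direction for 29 members in HFD against BD, 30 in MCD against BD and 31 in MCD against HFD, and within 1.5-fold for 25, 23 and 22.

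**Figure D1:**
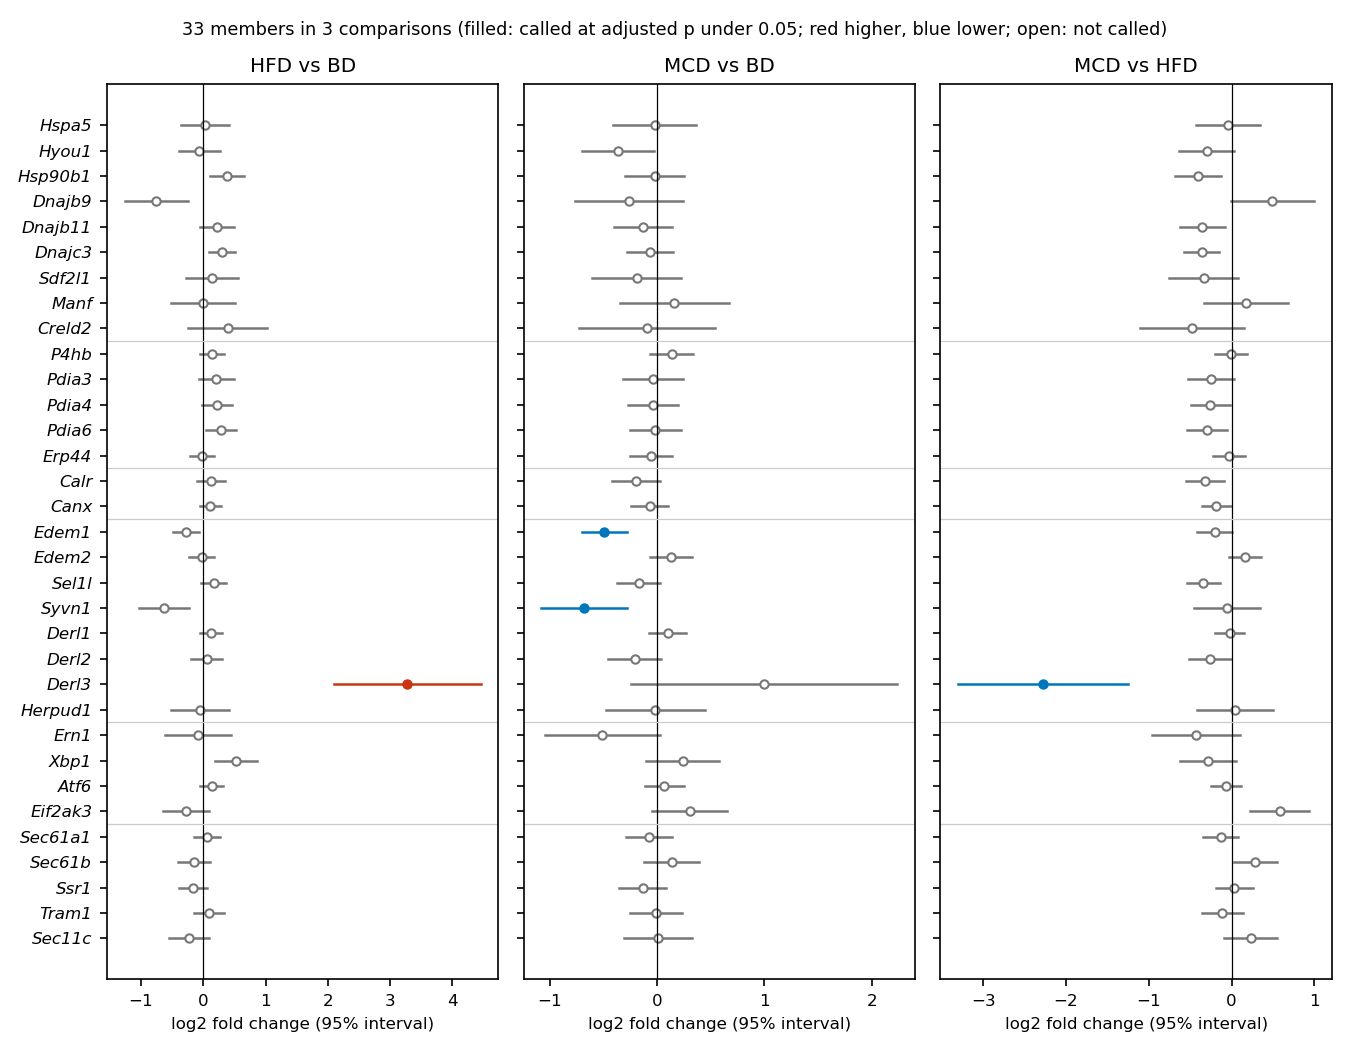
Log2 fold change (x axis, each panel on its own scale) with its 95% interval for the 33 members (y axis, grouped by role, from the Hsp70 and Hsp90 systems at the top to translocation at the bottom) in the 3 comparisons. Filled points are called at an adjusted p under 0.05: Derl3 at 3.27 in HFD vs BD and -2.28 in MCD vs HFD, and Edem1 (-0.49) and Syvn1 (-0.68) in MCD vs BD. Most intervals include 0.

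Derl3, a Derlin of the degradation channel that is scarce in liver, was the member that rose in HFD. It lies on chromosome 10 from 75893398 to 75895941 (GRCm38.p6), and its promoter carries the ERSE letters printed above. Its level was 0.852, 1.34, 0.345, 1.14 and 2.12 CPM in BD replicates 1 to 5. In HFD it was 5.57, 5.48, 26.1, 21.3 and 5.26 CPM. In MCD it was 3.38, 2.18, 2.13, 2.82 and 2.03 CPM. Every HFD library stood above every library of both other diets, replicates 3 and 4 of HFD stood far above the other 3 HFD libraries, and BD and MCD overlapped at BD replicate 5. HFD replicates 3 and 4 also had the most non-unique alignments per gene count in HFD (2.127 and 2.530, against 1.147 to 1.903). BD replicate 5 had the most of all (2.796). In MCD, replicate 2 had the most (1.665), while replicate 1, with the highest Derl3, had 1.350. Beyond the fit with that covariate, given below, its part was not tested. The means were 1.16 ± 0.656 CPM in BD, 12.7 ± 10.1 under HFD and 2.51 ± 0.579 under MCD (SD, n = 5).

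HFD exceeded BD for Derl3 by 3.27 ± 0.55 on the log2 scale, or 9.67-fold (adjusted p = 0.00194). Without HFD replicates 3 and 4, left out after the data were seen, the difference was 2.11 ± 0.34 (adjusted p = 0.00133). Derl3 was called higher in HFD under each of the 25 alternative fits and left-out libraries that were tried, with an adjusted p of at most 0.0187. MCD lay below HFD by a log2 fold change of -2.28 ± 0.48 (adjusted p = 0.0223). That call was lost with only both diets fitted (adjusted p = 0.0525) as well as when non-unique alignments per gene count entered the fit (estimate -1.30), and without single libraries the adjusted p was 0.0779 without HFD replicate 4, 0.0514 to 0.0564 without MCD replicate 1, 4 or 5, and 0.186 without HFD replicates 3 and 4, where the difference was -1.08. MCD against BD gave 0.998 ± 0.58 (adjusted p = 0.248), and Derl3 was called higher there in 3 other fits: with non-unique alignments in the fit (2.14, adjusted p = 0.0106), with only both diets fitted (1.03, 0.0447) and without HFD replicates 3 and 4 (1.03, 0.0271). The counts behind BD were small, from 3 in replicate 1 to 45 in replicate 5, and Derl3 passed the filter on low counts through its HFD and MCD libraries.

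Derl3 is abundant in plasma cells and in pancreas, so their markers were read beside it. Of 10 plasma and B cell markers, Tnfrsf17 had no count in any HFD or MCD library. Igj, the joining chain of secreted antibodies, was at 1.19 CPM in HFD replicate 3 and 1.16 in HFD replicate 4, against 0.284 to 1.085 CPM in BD and 0.711 to 2.08 in MCD. Mzb1, a plasma cell chaperone, was at 0.237 and 0.338 CPM in HFD replicates 3 and 4, against 0.284 to 0.604 in BD. Prdm1, the transcription factor of plasma cells, was at 1.42 and 1.21 CPM in those libraries, against 0 to 1.14 in BD, and Irf4, which acts in the same cells, at 0.948 and 0.241, against 0 to 0.568. The summed level of the 10 markers was 145.5 to 306.2 CPM in BD, 147.9 to 183.8 under HFD and 133.6 to 177.1 under MCD, nearly all of it from Sdc1, which hepatocytes also make. Pou2af1, Cd79a, Cd79b and Ms4a1 belong to that sum and are not given singly. Within HFD the sum was 147.9 and 150.7 CPM in replicates 3 and 4, against 177.7, 169.7 and 183.8 in replicates 1, 2 and 5. Apart from Tnfrsf17, no single marker is given for HFD replicates 1, 2 and 5, so these markers are not compared within HFD. In HFD replicate 3, 3 counts equal 0.711 CPM, so its marker levels near 1 CPM rest on few counts. Only 4 of the 10 had enough counts to be tested. By edgeR, 1 of these 4 was called lower and 0 higher in HFD against BD, and likewise in MCD against BD. DESeq2 and limma-voom also called 1 higher in MCD against BD, and limma-voom called 0 in HFD against BD. Of 8 pancreatic acinar markers, 4 had no count in any library, and their sum was 21.3 to 31.4 CPM in BD, 7.65 to 19.2 under HFD and 8.86 to 16.7 under MCD. The acinar sum was nearly all Cela1, at 15.2 and 19.1 CPM in HFD replicates 3 and 4. The part of either list in the level of Derl3 was not tested.

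**Figure D2:**
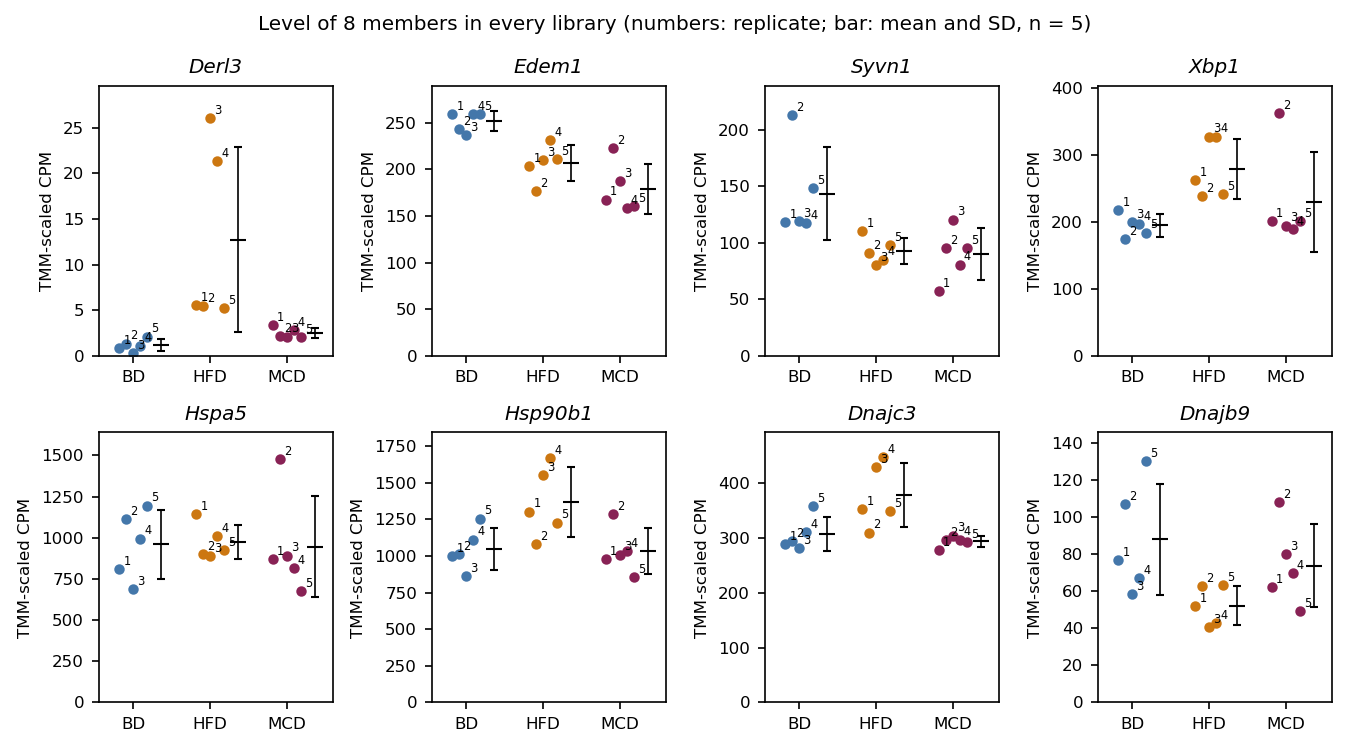
Level of 8 members in each of the 15 libraries (y axis, TMM-scaled CPM from 0, each panel on its own scale; x axis, diet; numbers name the replicate; bars are mean and SD, n = 5). Derl3 in HFD replicates 3 and 4 (26.1 and 21.3 CPM) stands above all other libraries, every HFD and MCD library lies below every BD library for Edem1, and MCD replicate 2 is set apart for Hspa5 and Xbp1.

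Among the other degradation genes, Edem1 and Syvn1 fell in MCD. Edem1, which passes misfolded glycoproteins on for degradation, lies on chromosome 6 from 108824045 to 108859356. It stood at 259.2, 243.0, 237.2, 259.4 and 259.6 CPM in BD replicates 1 to 5, a narrow range. In HFD it stood at 203.9, 176.9, 210.4, 231.1 and 211.3 CPM. In MCD it stood at 167.6, 222.8, 187.5, 158.4 and 160.6 CPM. The lowest BD library exceeded every HFD and every MCD library, and HFD and MCD overlapped. MCD against BD was -0.49 ± 0.10 (adjusted p = 0.00165), a fall to 71.3% of the BD mean that was called under each of the 25 alternatives. HFD against BD was -0.28 ± 0.10 (adjusted p = 0.0992), and MCD against HFD was -0.21 (adjusted p = 0.256). The long noncoding RNA gene Gm35417, which was not tested, overlaps Edem1 from 108824045 to 108828276. As the strand setting of the counting was not given, reads there are uncertain.

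Syvn1 encodes Hrd1, the ligase that marks ER proteins with ubiquitin, and lies on chromosome 19 from 6046576 to 6053718. BD replicates 1 to 5 stood at 118.1, 213.4, 119.4, 117.6 and 148.7 CPM. HFD stood at 110.4, 91.1, 80.1, 85.3 and 97.9 CPM, all below BD. MCD stood at 57.6, 95.2, 120.7, 80.8 and 95.4 CPM. MCD replicate 3 reached into the BD range, and the other 4 MCD libraries lay below it. MCD against BD was -0.68 ± 0.19 (adjusted p = 0.0160), and HFD against BD, with nearly the same estimate of -0.63 ± 0.19, had an adjusted p of 0.0563 by edgeR. It was called by DESeq2 (adjusted p = 0.0181) and by edgeR with only both diets fitted (0.0332), and in 4 of the 25 alternatives in all. Without BD replicate 2, the highest BD library, HFD against BD was -0.44, and MCD against BD was -0.49 and still called. Without HFD replicates 3 and 4 the adjusted p in HFD against BD was 0.249. The call for MCD was lost when non-unique alignments entered the fit (-0.65, adjusted p = 0.0548). Syvn1 overlaps Mrpl49 at its end, and since the strand setting of the counting was not given, reads there cannot be assigned for certain.

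The other 5 degradation genes were not called by edgeR in any comparison. Sel1l, the scaffold of the Hrd1 complex, was at 239.2 ± 16.6 CPM in BD, 268.5 ± 20.2 under HFD and 212.2 ± 27.7 under MCD (SD, n = 5), and MCD against HFD was -0.34 ± 0.09 (adjusted p = 0.0540; 0.0361 without HFD replicate 2). DESeq2 (adjusted p = 0.0135) and limma-voom (0.0414) called that difference of Sel1l. Without HFD replicates 3 and 4 its adjusted p was 0.290, and the difference was called in 5 of the 25 alternatives. Herpud1, a cofactor of that complex, had nearly equal means of 394.3, 381.1 and 390.8 CPM, with libraries from 258.7 to 583.0 CPM, so the diets differed far less than the libraries within them. Derl1 and Derl2, the relatives of Derl3 that are made in most tissues, were at 105.3 and 129.2 CPM in BD, and their 6 fold changes ran from -0.26 to 0.12. Their 95% intervals in HFD against BD (-0.05 to 0.30 for Derl1 and -0.20 to 0.30 for Derl2) lay below that of Derl3 (2.09 to 4.45). Edem2, which starts mannose trimming, ran from 50.1 to 70.3 CPM over all libraries, with a highest estimate of 0.16 in MCD against HFD (adjusted p = 0.352).

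None of the 9 genes of the Hsp70 and Hsp90 systems was called by edgeR. Hspa5, BiP itself and the usual readout of ER stress, stood at 808.1, 1112, 686.9, 994.9 and 1195 CPM in BD. HFD stood at 1143, 901.1, 890.3, 1008 and 926.5 CPM. MCD stood at 868.3, 1476, 891.5, 818.3 and 676.0 CPM. The diets overlapped throughout, with the highest and the lowest library of all (MCD replicates 2 and 5) in the same diet. The differences were 0.02 in HFD against BD (95% interval -0.36 to 0.41, adjusted p = 0.969) and -0.02 in MCD against BD (-0.41 to 0.36, adjusted p = 0.953). Hspa5 overlaps Rabepk at its end, and reads there are uncertain for the same reason as in Syvn1.

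Hsp90b1 and Dnajc3 had their highest means in HFD. Hsp90b1, the ER form of Hsp90, was at 1049 ± 146 CPM in BD, 1367 ± 238 under HFD and 1033 ± 158 under MCD (SD, n = 5). HFD against BD was 0.38 ± 0.13 (adjusted p = 0.0950) and MCD against HFD -0.40 ± 0.13 (adjusted p = 0.0981). Dnajc3, which also restrains PERK, was at 280.7 to 357.9 CPM in BD, 309.3 to 446.7 under HFD and 277.7 to 303.9 under MCD. No MCD library reached the lowest HFD library for Dnajc3, yet MCD against HFD (-0.36 ± 0.10) missed the threshold with an adjusted p of 0.0585, and HFD against BD was 0.30 ± 0.10 (adjusted p = 0.0906). Leaving out HFD replicate 2, the library that lay among MCD, brought both genes past the threshold in both comparisons: Hsp90b1 to 0.46 (adjusted p = 0.0401) and -0.46 (0.0275), and Dnajc3 to 0.37 (0.0290) and -0.41 (0.0118). Leaving out HFD replicates 3 and 4 instead gave 0.22 (adjusted p = 0.446) and -0.22 (0.598) for Hsp90b1, and 0.15 (0.456) and -0.19 (0.497) for Dnajc3. With all libraries, DESeq2 called Dnajc3 in HFD against BD (adjusted p = 0.0440) and in MCD against HFD (0.0193).

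Dnajb9, a J-domain partner that keeps IRE1 inactive, had the lowest estimate of all members in HFD against BD. It was at 88.0 ± 30.0 CPM in BD, 52.3 ± 10.8 under HFD and 73.9 ± 22.2 under MCD (SD, n = 5), with HFD against BD at -0.75 ± 0.24 (adjusted p = 0.0725; 0.0170 by DESeq2). Both HFD libraries with high Derl3 had the lowest Dnajb9, 40.8 and 42.6 CPM. Without HFD replicates 3 and 4, HFD against BD was -0.56 for Dnajb9 (adjusted p = 0.286). Dnajb11, a further BiP partner, ran from 83.8 to 125.7 CPM in BD, 102.8 to 142.6 under HFD and 88.25 to 132.1 under MCD. Hyou1, a large Hsp70 relative that reloads BiP, had means of 288.7, 276.6 and 224.6 CPM, with MCD against BD at -0.36 ± 0.16 (adjusted p = 0.115). That difference of Hyou1 was called without BD replicate 3 (-0.47, adjusted p = 0.0314) and without MCD replicate 2 (-0.46, 0.0453). Sdf2l1, a partner of Dnajb11, ran from 19.4 to 38.05 CPM over all libraries. Manf, a secreted ER stress protein, and Creld2 varied more between libraries than between diets: Manf ran from 61.2 to 184.5 CPM within MCD alone and Creld2 from 18.7 to 59.1 within BD.

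None of the 5 disulfide isomerases and 2 lectins was called by edgeR. P4hb, the archetypal protein disulfide isomerase, was at 1675 ± 118 CPM in BD, 1848 ± 201 under HFD and 1840 ± 152 under MCD (SD, n = 5), and both diets gave an estimate of 0.14 against BD (adjusted p = 0.446 in HFD and 0.331 in MCD). Pdia3, which works with the lectins, and Pdia4 and Pdia6 had estimates of 0.21, 0.22 and 0.28 in HFD against BD, of -0.04, -0.04 and -0.01 in MCD against BD, and of -0.25, -0.26 and -0.30 in MCD against HFD. The lowest adjusted p among these 9 values was 0.148, for Pdia6 in MCD against HFD. Erp44, which retrieves unassembled proteins from the Golgi, had estimates from -0.05 to -0.02. Calr was at 926.8 to 1376 CPM in BD, 1121 to 1414 under HFD and 845.3 to 1020 under MCD. Every MCD library was below every HFD library for Calr, with a difference of -0.32 ± 0.11 (adjusted p = 0.105). Canx, the membrane-bound partner of Calr, gave -0.19 ± 0.08 there (adjusted p = 0.215).

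Of the sensors, none was called by edgeR. Xbp1, the transcription factor whose RNA IRE1 splices, stood at 218.3, 174.7, 200.4, 197.2 and 184.2 CPM in BD. HFD stood at 262.0, 239.1, 327.7, 327.6 and 242.2 CPM, without overlap with BD. MCD stood at 201.2, 362.9, 194.7, 189.1 and 201.8 CPM, a range like that of BD apart from replicate 2. HFD against BD was 0.52 ± 0.16 (adjusted p = 0.0600; 0.0263 by DESeq2). MCD replicate 2 enters that comparison only through the filter, scaling, spread and adjustment that all libraries share. Without it, the adjusted p was 0.00287 at the same estimate of 0.52, and MCD against HFD became -0.50 (adjusted p = 0.0221) in place of -0.28 (0.335). Without HFD replicates 3 and 4, Xbp1 gave 0.36 in HFD against BD (adjusted p = 0.286) and -0.11 in MCD against HFD (0.865). The tables count reads per gene, so the spliced and unspliced forms of Xbp1 were not told apart.

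Eif2ak3, which encodes PERK, was at 27.1 ± 5.47 CPM in BD, 22.3 ± 6.01 under HFD and 33.4 ± 3.22 under MCD (SD, n = 5). Every MCD library (30.5 to 38.6 CPM) was above every HFD library (14.4 to 28.9), and MCD against HFD was 0.58 ± 0.17 (adjusted p = 0.0657; 0.0147 without HFD replicate 2). DESeq2 (adjusted p = 0.0298) and limma-voom (0.0467) called that difference of Eif2ak3. Without HFD replicates 3 and 4 the difference was 0.39 (adjusted p = 0.427), and it was called in 5 of the 25 alternatives. Ern1, which encodes IRE1, ran from 46.45 to 89.4 CPM in HFD and from 23.6 to 74.0 in MCD, and MCD against BD was -0.51 ± 0.25 (adjusted p = 0.170). MCD replicate 2 had the highest Xbp1 of all libraries and the lowest Ern1. Atf6 was steady at 101.9, 111.7 and 106.8 CPM, with no estimate beyond 0.13 in size.

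None of the 5 translocation genes was called by edgeR. Sec61a1, the pore of the channel, Sec61b, a small subunit beside it, Ssr1 and Tram1, which assist insertion, and Sec11c, a subunit of the signal peptidase, had fold changes from -0.22 (Sec11c) to 0.10 (Tram1) in HFD against BD. In MCD against BD they ran from -0.13 (Ssr1) to 0.14 (Sec61b), and in MCD against HFD from -0.13 (Sec61a1) to 0.29 (Sec61b). The lowest adjusted p of these 15 values was 0.191, for Sec61b in MCD against HFD. Over the 3 comparisons their 95% intervals reached from -0.55 to 0.55, and all lay within 1.5-fold.

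Over all 33 members, the median estimate in MCD against HFD was -0.19, against -0.003 over all tested genes, and 25 members (75.8%) had a negative estimate, against 50.7%. With library totals in place of TMM factors, these medians were -0.11 and 0.07. At an unadjusted p under 0.05, 10 of 33 (30.3%) were lower there, against 8.83% of tested genes. In HFD against BD, 20 of 33 (60.6%) had a positive estimate, against 48.8%, with a median of 0.10 against -0.01. In MCD against BD, 23 of 33 (69.7%) had a negative estimate, against 53.4%, with a median of -0.04 against -0.03, which library totals turned to 0.09 against 0.12. These shares describe linked genes in the same libraries and carry no test. By role, the median in MCD against HFD was -0.34 for the Hsp70 and Hsp90 systems, -0.25 for the disulfide isomerases, -0.25 for the lectins, -0.13 for degradation, -0.17 for the sensors and 0.03 for translocation.

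Some libraries were at the edge of their diet for many members. MCD replicate 2 was the highest MCD library for 24 of the 33 members, and BD replicate 3 was the lowest BD library for 23. HFD replicate 2 was the lowest HFD library for 20 members, HFD replicate 4 the highest for 12, and MCD replicate 5 the lowest MCD library for 16. MCD replicate 2 also had the highest summed level of 8 hepatocyte markers (163800 CPM, against 117900 to 149300 over all BD and HFD libraries) and the lowest share of reads outside genes (12.7% against up to 17.0%). The part of those values in the members' levels was not tested. Without MCD replicate 2, 6 members were called lower in MCD than in HFD (Hsp90b1, Dnajb11, Pdia4, Pdia6, Derl3 and Xbp1), and without HFD replicate 2, 5 members (Hsp90b1, Dnajb11, Dnajc3, Sel1l and Derl3), where all 15 libraries gave 1. Without HFD replicates 3 and 4, there were 0. Over all tested genes, 91 were called lower in MCD than in HFD without MCD replicate 2, 409 without HFD replicate 2 and 1 without HFD replicates 3 and 4, where all libraries gave 113.

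**Figure D3:**
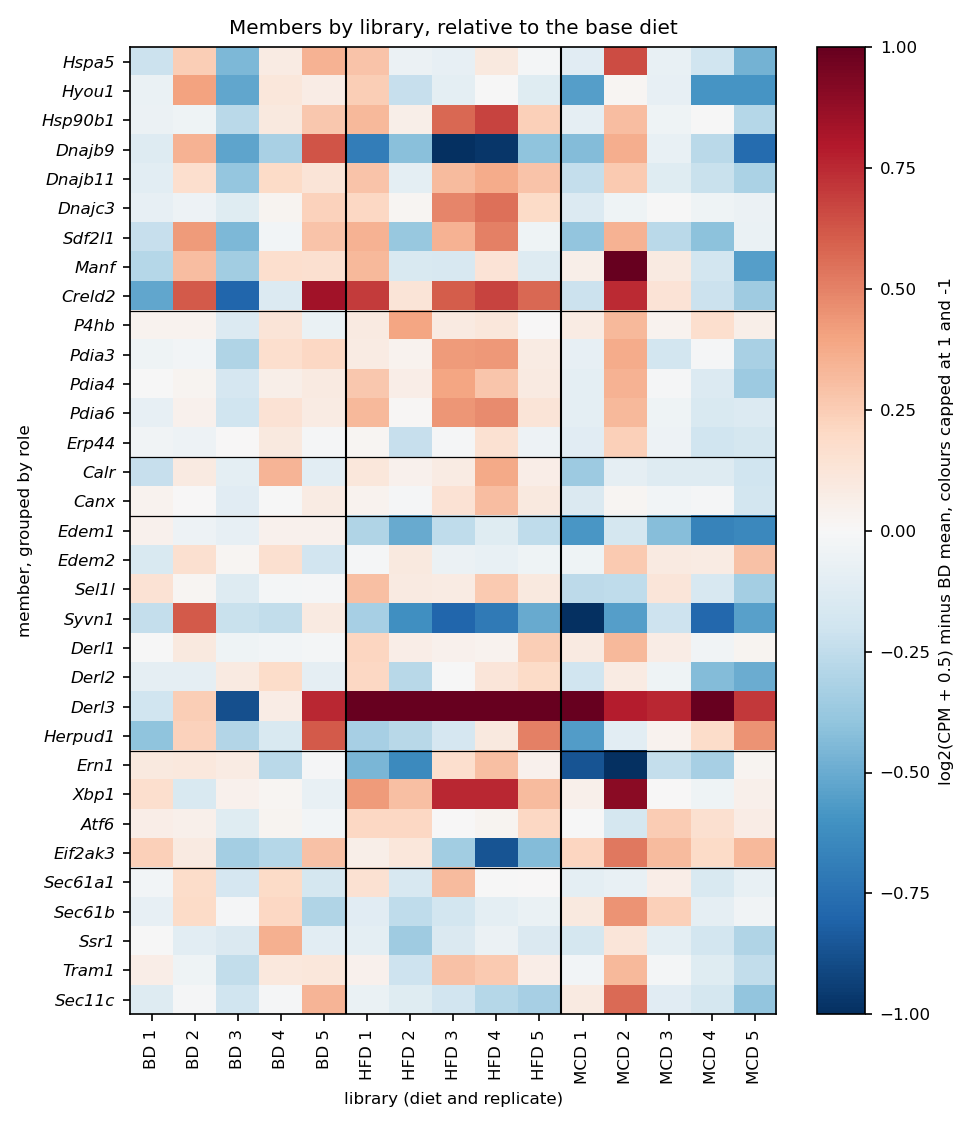
Each member (rows, grouped by role) in each library (columns, by diet and replicate) as log2(CPM + 0.5) minus its BD mean, with colours capped at 1 and -1. MCD replicate 2 is mostly red within MCD, where it is the highest library for 24 of 33 members, Derl3 is at the upper cap in all HFD libraries, and Edem1 is blue in every HFD and MCD library.

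The members were also read by their promoter letters. The 11 members with ERSE or ERSE-II letters had a median of 0.22 in HFD against BD (9 positive, 2 negative), -0.06 in MCD against BD (1 positive, 10 negative) and -0.32 in MCD against HFD (1 positive, 10 negative). The 15 members whose window lacked them had medians of -0.02 (7 positive, 8 negative), -0.05 (5 positive, 10 negative) and -0.21 (5 positive, 10 negative). The 7 members with no window in the table had medians of 0.06 (4 positive, 3 negative), 0.01 (4 positive, 3 negative) and -0.06 (2 positive, 5 negative). Over all tested genes, 51.2%, 53.4% and 50.7% of the estimates were negative in these comparisons. The signs of linked genes in the same libraries carry no test. Derl3 and Syvn1 bear the same ERSE letters on opposite strands, and they were the highest and the lowest of the 11 in HFD against BD, at 3.27 and -0.63. Edem1 and Xbp1, whose windows lacked the letters, gave -0.28 and 0.52. The Edem1 window, chr6:108828391-108828690, lay inside the span given for that gene, so the sequence at its start of 108824045 was not searched. The estimates of members with and without the letters overlapped in each comparison, and no match says only that these letters are absent from a window of this length.

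**Figure D4:**
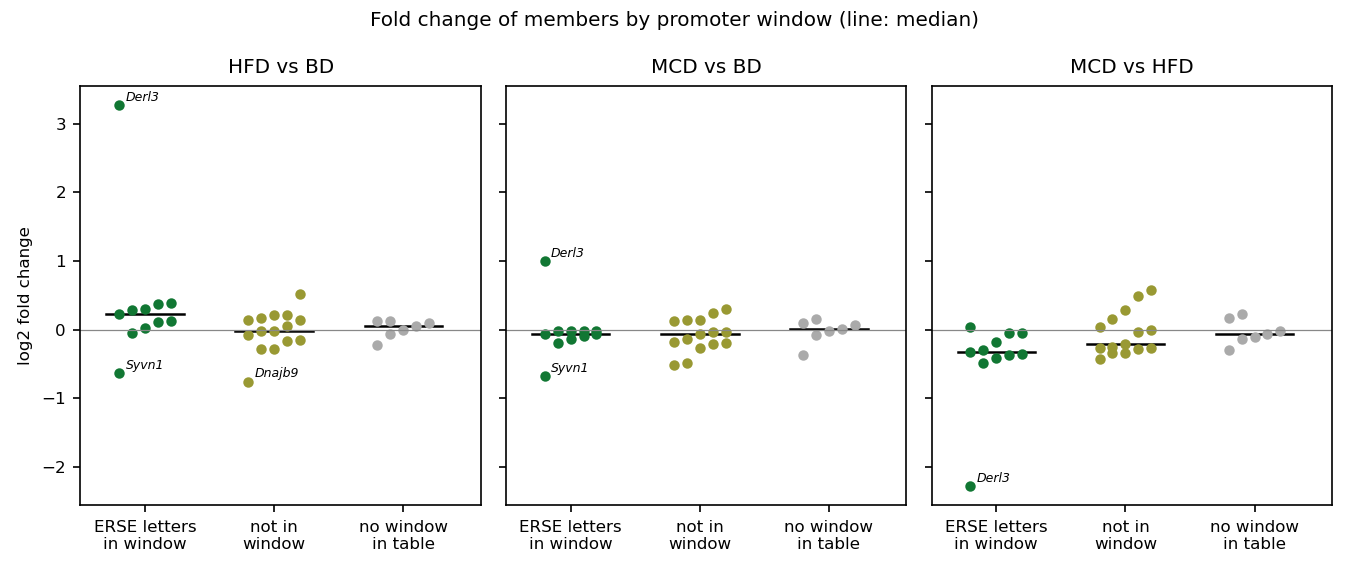
Log2 fold change (y axis, shared) of each member (points) by promoter class (x axis) in the 3 comparisons, with the class median as a line. The 11 members with ERSE or ERSE-II letters have medians of 0.22, -0.06 and -0.32, the 15 without them -0.02, -0.05 and -0.21, and the 7 with no window 0.06, 0.01 and -0.06.

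Levels per length, which allow genes to be compared, spanned a wide range. In BD, P4hb was highest with 585.6 CPM per kilobase of transcript, followed by Calr (502.3), Hsp90b1 (371.3), Hspa5 (261.3), Pdia3 (218.2) and Herpud1 (202.0). The lowest were Atf6 (14.1), Ern1 (10.5), Eif2ak3 (6.00) and Derl3 (0.878). The 8 highest genes kept the same order in BD, HFD and MCD. Within a diet, the coefficient of variation between libraries had a median over members of 13.7% in BD, 12.8% in HFD and 16.1% in MCD. Derl3 varied most in BD (56.6%) and HFD (79.7%), and Manf in MCD (46.4%). Dnajc3 was the steadiest member in MCD, at 3.31%.

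Other genes of these pathways, from lists that hold no member, were read in the same tables. Over all tested genes, 3.65% were called higher and 3.27% lower in HFD against BD. These shares were 12.8% and 8.64% in MCD against BD, and 2.22% and 0.927% in MCD against HFD. The counts of each list below are small and were not tested against these shares. By edgeR, 3 of 28 other folding genes rose and 0 fell in HFD against BD (0 lower also by edgeR's unadjusted p under 0.05 and by DESeq2 and limma-voom, with 3 lower by the unadjusted p of limma-voom), and 3 rose and 2 fell in MCD against BD. The risers with the smallest p were Ero1lb, an oxidase that recharges disulfide isomerases, in HFD (0.63 ± 0.14, adjusted p = 0.0105) and Dnajc10, a reductase with a J domain, in both diets (0.44, adjusted p = 0.0224, in HFD and 0.77, adjusted p = 0.000126, in MCD). Ganab, which trims glucose from new glycoproteins, fell in MCD (-0.46 ± 0.09, adjusted p = 0.00112). The remaining called genes, named after their values were seen, were Fkbp11 (0.77 in HFD and 0.74 in MCD), Fkbp7 (0.75 in MCD) and Ero1l (-0.47 in MCD).

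Of 26 tested degradation genes outside the members, 0 rose and 1 fell in HFD against BD, and 0 rose and 4 fell in MCD against BD. Vimp, a membrane partner of the Derlins, was the gene that fell in HFD (-0.47 ± 0.13, adjusted p = 0.0329). In MCD the lowest p belonged to Os9 (-0.49 ± 0.11, adjusted p = 0.0026), the lectin that hands substrates to Sel1l, and Faf2 (-0.35 ± 0.08, adjusted p = 0.00438), which recruits the extraction machinery. March6 (-0.43) and Ubac2 (-0.26), named after their values were seen, fell as well. At an unadjusted p under 0.05 by edgeR, 0 of the 26 were higher in either comparison, and DESeq2 and limma-voom called 0 higher. Of 27 tested translocation genes, edgeR, DESeq2 and limma-voom each called 0 in HFD against BD, where 2 were lower at an unadjusted p under 0.05. In MCD against BD Rpn1 (-0.39 ± 0.10, adjusted p = 0.00643), part of the enzyme that attaches sugars, and Sec63 (-0.29 ± 0.09, adjusted p = 0.0323), which joins BiP to the channel, fell. By edgeR none of the 27 rose there, while 1 was higher by its unadjusted p under 0.05 and DESeq2 called 1 higher.

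Of 19 tested genes of the wider unfolded protein response, 1 rose and 2 fell in HFD against BD, and 3 rose and 0 fell in MCD against BD (1 lower at an unadjusted p under 0.05, and 0 by DESeq2 and limma-voom). Nupr1, a small stress protein, rose in both (2.01 ± 0.53, adjusted p = 0.0299, in HFD and 2.88 ± 0.50, adjusted p = 0.000638, in MCD), though limma-voom called 0 of the 19 higher in HFD. Trib3, a pseudokinase induced downstream of ATF4, rose in MCD (1.21 ± 0.23, adjusted p = 0.00112), with 8.93 to 11.98 CPM in MCD against 3.35 to 5.96 in BD. Atf4, the factor made when PERK is active, fell in HFD (-0.54 ± 0.13, adjusted p = 0.0153). Creb3l2 (-0.80 in HFD) and Creb3l1 (1.57 in MCD), named after their values were seen, completed the counts. Ddit3, which encodes CHOP and is likewise named after its values were seen, gave -0.46 in HFD (adjusted p = 0.358) and 0.06 in MCD (adjusted p = 0.896). None of the 100 tested genes of these 4 lists was called in MCD against HFD by edgeR, where an unadjusted p under 0.05 was met by 10 upward and 6 downward. DESeq2 called 2 lower there and limma-voom 1 higher.

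Other gene lists moved with diet beside the members. Over all tested genes, 3.65% were called higher and 3.27% lower in HFD against BD, and 12.8% and 8.64% in MCD against BD. Of 15 clock genes tested, 8 rose and 4 fell in HFD against BD, 7 rose and 5 fell in MCD against BD, and 0 were called in MCD against HFD by edgeR, while DESeq2 called 1 lower and 2 were lower by edgeR's unadjusted p under 0.05. All 10 macrophage markers rose in MCD against BD and 3 in HFD, and their summed level was 231.7 to 416.3 CPM in BD, 360.9 to 536.2 under HFD and 505.4 to 661.6 under MCD. Stellate cell and fibroblast markers summed to 309.5 to 406.0 CPM in BD, 388.0 to 554.3 under HFD and 556.1 to 964.3 under MCD. Of 8 hepatocyte markers, 2 fell in MCD against BD and 6 had a negative estimate, with a median of -0.46. The part of these lists in the fall of Edem1 and Syvn1 was not tested.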

How the data were processed

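PolyA RNA of 15 liver libraries, 5 per diet, was read from the deposited tables of whole-number counts per gene symbol, 1 per library. The submitters' processing notes list HTSeq, DESeq2, TopHat2 (version 2.0.13) and Trimmomatic and the build GRCm38/mm10. A stranded mRNA kit was used, per the labels' protocols. Which annotation, strand option and overlap mode the counting used is not given in the sources used here, so overlapping genes are uncertain. Members that overlap a tested gene are Syvn1 (Mrpl49), Hspa5 (Rabepk), Derl2 (Mis12) and Pdia3 (Catsper2). Further members, among them Edem1, overlap genes that were not tested. Rows that name no gene were left out of every total and test. Reads in no gene were 12.7% to 17.0% and ambiguous reads 0.567% to 0.841% of reads with a unique position. Replicate pairs differed beyond sampling noise, so none was taken as a repeat deposit. Replicates were numbered by order of accession and pair nothing.

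The test was edgeR 4.0.16 in R 4.3.3, two-sided: TMM factors, filterByExpr with diet (minimum count 10, minimum total 15), 1 robust quasi-likelihood fit over 15 libraries and Benjamini-Hochberg adjustment over 12193 genes. Each SE was obtained from the log2 fold change and the F statistic. The common biological coefficient of variation (BCV) equalled 0.176. Gene counts per library ran from 3704642 to 23131089, and 3 counts equal 0.118 to 0.852 CPM, so levels near 1 CPM are imprecise. The procedure was tested on simulated data. Alternatives used DESeq2 1.42.0, limma-voom (limma 3.58.1), other scalings, filters, thresholds, samples and a covariate of non-unique alignments per gene count. The fit without HFD replicates 3 and 4 was chosen after seeing the data.

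The members and lists were chosen with earlier results of these data known. All members are accounted for, with values in every library for called members and for Hspa5 and Xbp1. From each list of other pathway genes, the counts and the 2 called genes with the smallest p per comparison are given, and others are marked as named after their values were seen. Of 212 list entries 209 were found, 1 by its other symbol. Coordinates and promoters are from RefSeq (GRCm38.p6). Transcript lengths are of the longest principal coding transcript in GENCODE M21.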

Additional observations from a re-analysis of the deposited data

Results flagged for a closer look

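For 10 of the 99 combinations of a member and a diet, 1 of the 5 libraries stood apart. Chance gives that in about 1 in 20 groups if they are independent and normally distributed. The members are linked and share the same libraries, so the count of 10 cannot be set against that rate. The gap to the next library was compared with the range of the diet. MCD replicate 2 stood above the other MCD libraries for Hspa5 (1476 CPM, next 891.5), Manf (184.5 CPM, next 95.9), Pdia6 (402.8 CPM, next 311.9) and Xbp1 (362.9 CPM, next 201.8). HFD replicate 2 stood below the other HFD libraries for Dnajb11 (102.8 CPM, next 133.8) and Creld2 (35.9 CPM, next 48.95), and above them for P4hb (2196 CPM, next 1806). HFD replicate 4 stood above the others for Calr (1414 CPM, next 1173). In BD, replicate 2 stood above the others for Derl1 (112.7 CPM, next 104.8) and replicate 4 for Ssr1 (184.9 CPM, next 144.2). The 2 high HFD values of Derl3 were not set apart by this measure, since each is the neighbour of the other.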

How the results depend on the processing

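Over 27 alternatives, 2573 of 2673 member values kept their direction and side of the threshold, 64 passed it, 10 lost it and 26 changed sign. Sign changes of uncalled values by less than 1 SE were counted as kept. Fits to fewer samples and other thresholds differ by construction, and for the other changes the cause was not tested.

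With all 15 libraries, 1 member was called higher in HFD than in BD, among 445 genes in all. Brackets in this paragraph give such calls over all tested genes. The count of 1 (445) became 4 (589) with library totals, 3 (621) with DESeq2 and 2 (403) with only both diets compared. It became 2 (320) without HFD replicate 2 and MCD replicate 3. Fitting non-unique alignments per gene count as a covariate gave 4 (569). At an adjusted p under 0.1 it was 4 (677). With each library left out it ran from 1 to 3 (293 to 507). The count of 0 (399) lower in HFD than in BD became 2 (495) with DESeq2, 1 (398) with only both diets and 1 (523) with the covariate. It became 3 (593) at an adjusted p under 0.1, and 0 to 2 (276 to 467) with each library left out. The count of 0 (1557) higher in MCD than in BD became 3 (2308) with library totals. It became 1, Derl3 each time, with only both diets (1564), with the covariate (1228) and without HFD replicates 3 and 4 (1685). The count of 2 (1053) lower in MCD than in BD became 1 (1051) with the covariate and 1 (511) at an adjusted p under 0.01. It ran from 2 to 3 (712 to 1241) with each library left out. The count of 0 (271) higher in MCD than in HFD became 1, Eif2ak3, with library totals (411), DESeq2 (433) and limma-voom (377). It was also 1 without HFD replicate 2 and MCD replicate 3 (883) and at an adjusted p under 0.1 (540). With each library left out it ran from 0 to 1 (56 to 839). The count of 1 (113) lower in MCD than in HFD became 3 (268) with DESeq2, 2 (123) with limma-voom and 0 (53) with only both diets. It became 4 (482) without HFD replicate 2 and MCD replicate 3, and 0 (26) with the covariate. At an adjusted p under 0.01 it was 0 (10), and under 0.1 it was 4 (305). Without HFD replicates 3 and 4 it was 0 (1). With each library left out it ran from 0 to 6 (18 to 409), with 6 (91) without MCD replicate 2 and 5 (409) without HFD replicate 2.

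Library totals moved the median of all genes in MCD against BD from -0.03 to 0.12, and higher against lower calls from 445 and 399 to 589 and 297 in HFD against BD, from 1557 and 1053 to 2308 and 512 in MCD against BD, and from 271 and 113 to 411 and 67 in MCD against HFD. The members' median in MCD against BD moved with it, from -0.04 to 0.09. DESeq2 called 433 higher and 268 lower in MCD against HFD.

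Signs changed for uncalled values near 0. In MCD against BD library totals gave 0.11 for Hsp90b1, 0.0004463 for Dnajb11, 0.0767 for Dnajc3, 0.0936 for Pdia4, 0.12 for Pdia6, 0.0806 for Erp44, 0.0688 for Canx, 0.066 for Sec61a1, 0.002153 for Ssr1 and 0.12 for Tram1. The covariate gave 0.18 for Hsp90b1, 0.006319 for Dnajb11, 0.10 for Dnajc3, 0.0867 for Sdf2l1, 0.36 for Creld2, 0.12 for Pdia3, 0.11 for Pdia6, 0.24 for Herpud1 and 0.12 for Tram1. With each library left out in turn, Manf ran from -0.15 (without MCD replicate 2) to 0.32 (without MCD replicate 5) in that comparison and from -0.14 to 0.31, at the same libraries, in MCD against HFD. Sec11c was -0.15 in MCD against BD without MCD replicate 2. In MCD against HFD, P4hb was 0.0929 without HFD replicate 2 and MCD replicate 3, and Tram1 was 0.0372 with the covariate and 0.0256 without HFD replicates 3 and 4, whose loss also brought Tram1 to -0.0197 in HFD against BD. Depth limits Derl3 most, with 3 to 45 counts per BD library.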
